A study of Danio rerio with 16 samples.

Results

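Solute carriers are membrane proteins that move amino acids, sugars, ions, metals, neurotransmitters and metabolites across the plasma membrane and the membranes of organelles. They are named by family and member, so that slc2a3a is a member of the SLC2 family of sugar carriers. The probe sets described here are those of a zebrafish (Danio rerio) expression array whose only gene symbol in the platform annotation begins with slc, a family number, the letter a and a member number. The symbols slc4a1a, slc2a15b, slc1a2b and slc1a3a, with 5 probe sets, were left out by rule. This gave 126 genes in 39 families, out of 8793 genes with a symbol of their own on the array, and they were measured by 145 probe sets out of 15502 that are not controls. The names slc7a6os and slc4a1ap match the rule, but these genes are named after a carrier and are not carriers themselves, which leaves 143 probe sets of 124 carrier genes. Genes are identified by their symbols, and no sequences or coordinates were used here.

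Some carriers let a solute move down its own gradient, some couple it to an ion gradient set up by ATP-driven pumps, and some exchange one solute for another. In a developing vertebrate many of them mark a single cell type, such as synaptic vesicle carriers in neurons, salt cotransporters in the kidney tubule and ionocytes, the ADP/ATP carrier of muscle, and the lipid and sugar carriers of liver and yolk layer. Others, such as the mitochondrial phosphate carrier, serve nearly every cell.

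RNA abundance was measured in 16 samples, 1 array each, that form 4 groups by label. Samples at the stage labelled 36 h are described as embryonic brain and came from embryos labelled foggy (6 arrays, numbered 1 to 6) or wild type (4 arrays, numbered 1, 4, 5 and 6). The remaining embryos were at 12 somites and had received an injection of an RNA named Foggy(DelCter) (3 arrays) or of a control RNA (3 arrays). The locus called foggy is supt5h, and its product Spt5 is the larger partner in DSIF, which travels with RNA polymerase II during elongation. The labels name no allele for the foggy embryos and give neither the control RNA nor the doses injected. A source field shared by all samples reads brain and adrenal medulla. The descriptions, which were followed here, give brain at 36 h and embryos for the injected groups, and the tissue was not tested. The labels do not say if replicates were separate clutches, and p-values therefore reflect only how far these samples spread, and that spread may be technical. In bulk RNA, fewer cells of a type and less RNA per cell cannot be told apart.

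The 36 h arrays numbered 1 to 3 and those numbered 4 to 6 stood apart. Over the 145 carrier probe sets, the correlation of log2 intensity between arrays was 0.978 to 0.990 within numbers 1 to 3 and 0.910 to 0.990 within numbers 4 to 6, but 0.702 to 0.755 between these sets. With the 12-somite arrays it was 0.797 to 0.925 for numbers 4 to 6 and 0.714 to 0.780 for numbers 1 to 3. Summed liver and yolk layer markers were 23800 to 28170 units in 36 h arrays 4 to 6 and 105.7 to 145.7 units in 36 h arrays 1 to 3. Whether the samples of numbers 4 to 6 held brain alone was not tested. The probe set of supt5h read 40.1, 47.1 and 38.6 units in foggy arrays 4 to 6, against 197, 231 and 167 units in wild-type arrays 4 to 6. In numbers 1 to 3 it read 258, 245 and 255 units in foggy arrays, against 209.8 units in the wild-type array, so the supt5h probe set does not bear out the labels of that set. Some marker lists differed there in the direction seen in numbers 4 to 6. Summed skeletal muscle markers were 664 to 718 units in foggy arrays 1 to 3 and 1800.0 units in wild-type array 1, red blood cell markers were 1443 to 1602 units in these foggy arrays and 6113 units in the wild-type array, and pigment cell markers were 784 to 812 units in these foggy arrays and 1657 units in the wild-type array. The comparison of foggy with wild type is therefore given first within numbers 4 to 6, then over all 36 h arrays.

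Intensities are in the arbitrary linear units of the deposited table. The 17 unused tag control probe sets, which should match no zebrafish transcript, reached 10.8 to 34.4 units depending on the array, and a mean at or below the highest of them on the same set of arrays is called within the tag range. Between 27 and 59 of the 145 carrier probe sets were within it in any 1 of the 6 sets of arrays (foggy or wild type in each number set, and each injected group). Of all 145, 66 were above it in every set and 23 were within it in every set. Differences are given as log2 of intensity plus 16, which understates changes of dim genes, with the standard error (SE) of the limma fit. A probe set was called at a limma adjusted p under 0.05, adjusted over all 15502 probe sets.

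In numbers 4 to 6, most carrier genes were at similar levels in foggy and wild-type samples, and under the main settings the calls were mostly falls. Of 145 probe sets, 15 were called (10.3%), 4 of them higher and 11 lower in foggy, against 9.84% of all probe sets (3.89% higher and 5.95% lower). The carriers' share of calls was thus near that of the whole array. The balance of directions depended on the settings. With 64 in place of 16 added before the log, 13 were higher and 11 lower (14.8% of all probe sets called). A filter on low values at the 30th percentile gave 9 higher and 9 lower of 108, against 19.3% of all probe sets kept. At the 60th percentile it gave 11 higher and 4 lower of 52, against 27.8% of those kept. Under the main settings the median log2 difference was 0.0967 for carriers and 0.0427 for all probe sets, and 126 of the 145 lay within 0.5 log2 units of 0. Of the 145 differences, 98 were positive and 47 negative. A change of at least 2-fold together with a call was seen for 4 carriers that fell and 0 that rose, against 1.66% and 0.252% of all probe sets. Leaving out any of the 6 arrays left 5 to 9 calls, and the share of all probe sets in those cases is not given here. A pseudocount of 1 in place of 16 left 4, where 3.44% of all probe sets were called. The calls kept with each array left out and with a pseudocount of 1 were those of slc2a11b, slc14a2, slc24a4a and 1 of the 2 probe sets of slc12a3. The 30th percentile filter removed slc14a2, slc24a4a and both slc12a3 probe sets before testing, and the 60th percentile filter removed slc2a11b as well.

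**Figure D1:**
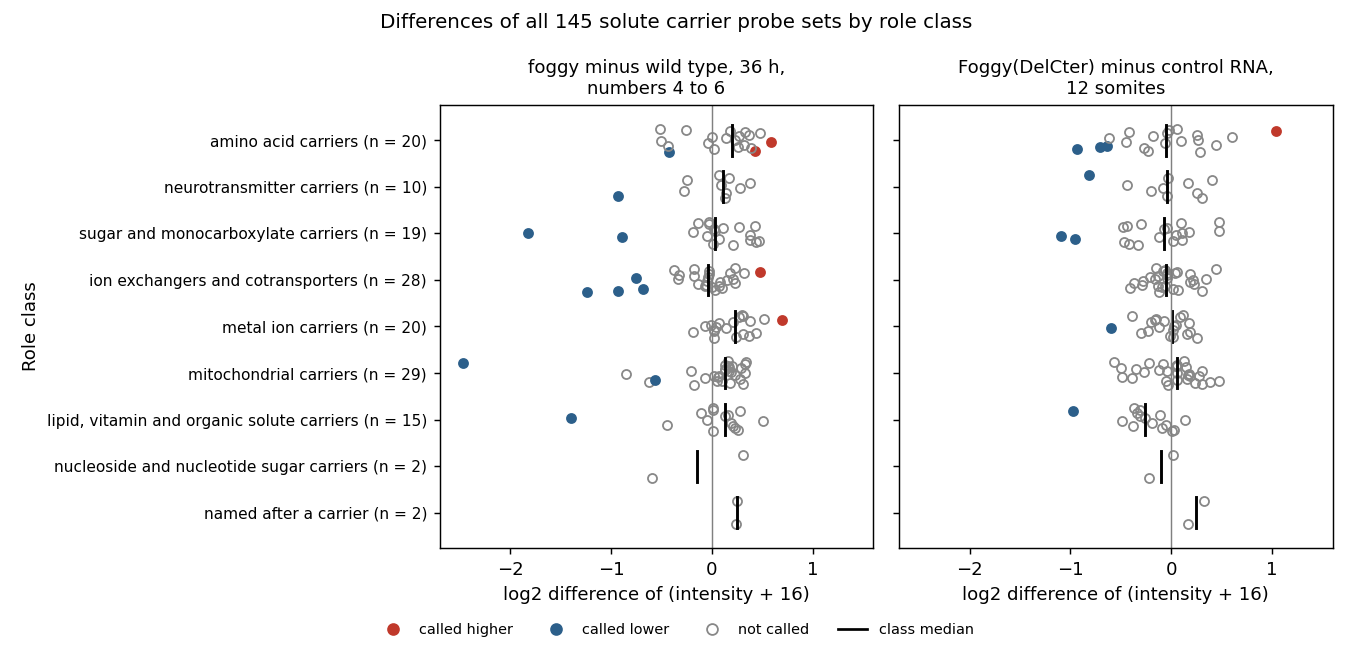
Log2 differences of all 145 carrier probe sets, sorted into 9 role classes, for foggy minus wild type in numbers 4 to 6 (left) and for Foggy(DelCter) minus control RNA (right). Each circle is a probe set, filled where called at an adjusted p under 0.05, and black bars are class medians. Most circles lie near 0, and the called falls in foggy reach -2.47, for a mitochondrial carrier.

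Among the 29 probe sets of mitochondrial carriers, 2 fell and 0 rose, and the class median was 0.131. The ADP/ATP carrier slc25a4, whose mammalian counterpart is the isoform of heart and skeletal muscle, had the lowest log2 difference of any carrier. It read 14.3, 13.3 and 57.1 units in foggy arrays 4, 5 and 6, against 120.4, 123 and 732 units in wild-type arrays 4, 5 and 6. The groups did not overlap, and array 6 was the highest of both groups. The log2 difference was -2.47 ± 0.60 (SE, n = 3 each) with a limma adjusted p of 0.0360. The call was lost without foggy array 4 (adjusted p = 0.116), foggy array 5 (adjusted p = 0.111) or wild-type array 4 (adjusted p = 0.0511), and without wild-type array 6 the difference was -1.68 and called. It was also lost with a pseudocount of 1 (adjusted p = 0.11) or 64 (adjusted p = 0.052) and with an intensity trend and robust prior (adjusted p = 0.131). Of 15 alternatives, 9 kept the call and 6 lost it. Among those that kept it, the limma adjusted p was 0.00215 with the replicate block and 0.0117 in 1 fit over the 10 arrays. It was 0.0188 with the 30th percentile filter.

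Skeletal muscle markers moved with slc25a4. The summed intensity of the 4 muscle markers measured (mylpfa, tnnt3b, ckma and actn3b) was 1543, 1334 and 2328 units in foggy arrays 4, 5 and 6, against 8796, 8397 and 14590 units in the wild-type arrays, and 3 of the 4 fell. Array 6 again had the highest sum in both groups, but this was not particular to muscle. Within numbers 4 to 6, array 6 also had the highest neuronal, glial, red blood cell, ionocyte and pronephros, photoreceptor and myeloid sums in both groups. Red blood cell, glial and myeloid sums were also lower in foggy arrays 4 to 6. Those of brain regions, photoreceptors, and liver and yolk layer overlapped between foggy and wild type. The part of muscle RNA in the slc25a4 result was not tested. The other fall among mitochondrial carriers was that of the citrate carrier slc25a1a, at 145, 179 and 142 units in foggy samples and 263, 263 and 205 units in wild-type samples (log2 difference -0.56 ± 0.14, limma adjusted p = 0.0389), a call lost when either array 4, wild-type array 5 or foggy array 6 was left out, at an adjusted p of 0.102 to 0.129. The phosphate carrier slc25a3b, which brings phosphate into mitochondria for ATP synthesis, read 2915, 3069.6 and 2696 units in foggy samples and 2984, 2862 and 2269 units in wild-type samples. These ranges overlapped, and its difference of 0.16 had a 95% interval of -0.15 to 0.47.

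Sugar and monocarboxylate carriers (19 probe sets) had 2 falls, 0 rises and a median difference of 0.03. The first was slc2a11b, a member of the facilitative glucose carrier family that in medaka is needed for yellow pigment cells. It read 8.87, 16.5 and 8.29 units in foggy samples, all within the tag range, against 64.6, 76.7 and 122 units in wild-type samples. It was thus at least 3.27-fold lower in foggy, with a fitted difference of -1.83 ± 0.20 and a limma adjusted p of 0.00121. This bound sets the wild-type mean against the highest tag control of the 3 foggy arrays. In numbers 1 to 3 slc2a11b read 78.5, 107 and 97.2 units in foggy arrays, against 146 units in the wild-type array. Pigment cell markers moved with it, since the sum of dct, tyr, mitfa and gch2 was 36.4 to 43.1 units in foggy arrays 4 to 6 and 1346 to 2313 units in wild-type arrays 4 to 6, and 4 of 4 fell. All 4 were within the tag range in foggy arrays 4 to 6, and tyr, at a mean of 14.4 units, was within it in wild-type arrays 4 to 6 too. The part of these markers in the result was not tested.

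The second sugar-related fall was that of slc37a4b, a glucose-6-phosphate carrier of the endoplasmic reticulum that works with glucose-6-phosphatase. It read 28.3, 30 and 37.4 units in foggy samples, against 56.8, 64.4 and 128 units in wild-type samples, with no overlap (difference -0.89 ± 0.22, limma adjusted p = 0.0393). The call was lost without any of the 3 foggy arrays or wild-type array 5, at an adjusted p of 0.0602 to 0.117. The probe sets of its paralogue slc37a4a were not called, with differences of 0.27 ± 0.14 (limma adjusted p = 0.279) and 0.43 ± 0.17 (limma adjusted p = 0.145). The difference between the paralogues was not tested.

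Neurotransmitter carriers (10 probe sets) had 1 fall and 0 rises, with a median difference of 0.108. The fall was that of slc18a3a, which loads acetylcholine into synaptic vesicles and marks cholinergic neurons such as motor neurons. It read 30.6, 30.2 and 36 units in foggy arrays, against 70.9, 66.2 and 119.8 units in wild-type arrays, with no overlap. The difference was -0.94 ± 0.18 with a limma adjusted p of 0.0150, lost without foggy array 4 (adjusted p = 0.0596) or foggy array 5 (adjusted p = 0.0545). In numbers 1 to 3 the probe set read 96.6, 100.1 and 95.7 units in foggy arrays, against 169 units in the wild-type array. The summed signal of 8 neuronal markers was 983.5 to 1327 units in foggy arrays 4 to 6 and 1944 to 2485 units in wild-type arrays 4 to 6, and 3 of 8 fell. The neuronal sum thus moved with slc18a3a in numbers 4 to 6. It did not in numbers 1 to 3, where it was 9934 to 10310 units in foggy arrays and 9774 units in the wild-type array. The part of neuronal markers in the result was not tested. The GABA uptake carrier slc6a11a was at 206, 183 and 187 units in foggy samples and 153, 181 and 213 units in wild-type samples, with a difference of 0.07 (95% interval -0.23 to 0.38).

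Ion exchangers and cotransporters (28 probe sets) had 4 falls, 1 rise and a median difference of -0.0353. Both probe sets of slc12a3 fell. This gene encodes the thiazide-sensitive sodium chloride cotransporter, which takes up salt in the mammalian kidney tubule. The first probe set read 6.14, 5.59 and 4.80 units in foggy samples, within the tag range, against 32.2, 32.4 and 40.3 units in wild-type samples. It was at least 1.30-fold lower in foggy, with a fitted difference of -1.24 ± 0.11 and a limma adjusted p of 0.000516. The second read 9.14, 1.42 and 1.77 units in foggy samples and 23.7, 22 and 17.3 units in wild-type samples. Its fitted difference was -0.93 ± 0.18 (limma adjusted p = 0.0168), but its mean in wild-type samples was below the highest tag control of the foggy arrays, so no fold is given, and the call was lost without wild-type array 4 or 5 or foggy array 5 or 6, at an adjusted p of 0.0524 to 0.0659.

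The other falls among ion carriers were also of dim probe sets. The sodium-phosphate cotransporter slc20a1a read 5.11, 1.9 and 5.87 units in foggy samples and 16.4, 12.4 and 26.3 units in wild-type samples (difference -0.75 ± 0.16, limma adjusted p = 0.0247), a call lost without either array 4, foggy array 5 or wild-type array 6, at an adjusted p of 0.0639 to 0.0801. Its paralogue slc20a1b, a bright probe set, had nearly equal levels, at 560.2, 561 and 548 units in foggy samples and 574, 549 and 558 units in wild-type samples (difference -0.03, 95% interval -0.27 to 0.20). The potassium-dependent sodium-calcium exchanger slc24a4a read 6.68, 7.28 and 7.46 units in foggy samples and 22.6, 23 and 18.5 units in wild-type samples (difference -0.68 ± 0.12, limma adjusted p = 0.00963). For slc20a1a and slc24a4a no fold is given, for the same reason as for the second slc12a3 probe set. The rise was that of slc26a5, known in mammals as prestin, the motor protein of outer hair cells, at 194, 171 and 224 units in foggy samples and 134, 122 and 143 units in wild-type samples. Its groups did not overlap (difference 0.47 ± 0.13, limma adjusted p = 0.0496), but the call was lost whichever of the 6 arrays was left out, at an adjusted p of 0.0679 to 0.148.

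The urea carrier slc14a2 fell as well. It read 1.35, 3.16 and 6.59 units in foggy arrays 4 to 6, within the tag range, against 26.6, 32.9 and 48.9 units in wild-type arrays 4 to 6, and was at least 1.34-fold lower in foggy (fitted difference -1.40 ± 0.17, limma adjusted p = 0.00174). It was the 1 fall among 15 probe sets of lipid, vitamin and organic solute carriers, which had 0 rises and a median difference of 0.133. Markers of ionocytes and pronephros, the tissues in which salt cotransport is prominent in fish embryos, summed to 282.6 to 326.3 units in foggy arrays 4 to 6 and 514.8 to 615.1 units in wild-type arrays 4 to 6, and 1 of the 3 measured, atp1a1a.4, fell. Of the other two, cdh17 averaged 187 units in foggy samples and 296 units in wild-type samples, and pax8 18.8 units in foggy samples and 14.9 units in wild-type samples. The sum was thus lower beside slc12a3 and slc14a2, and the part of these markers in the results was not tested.

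**Figure D2:**
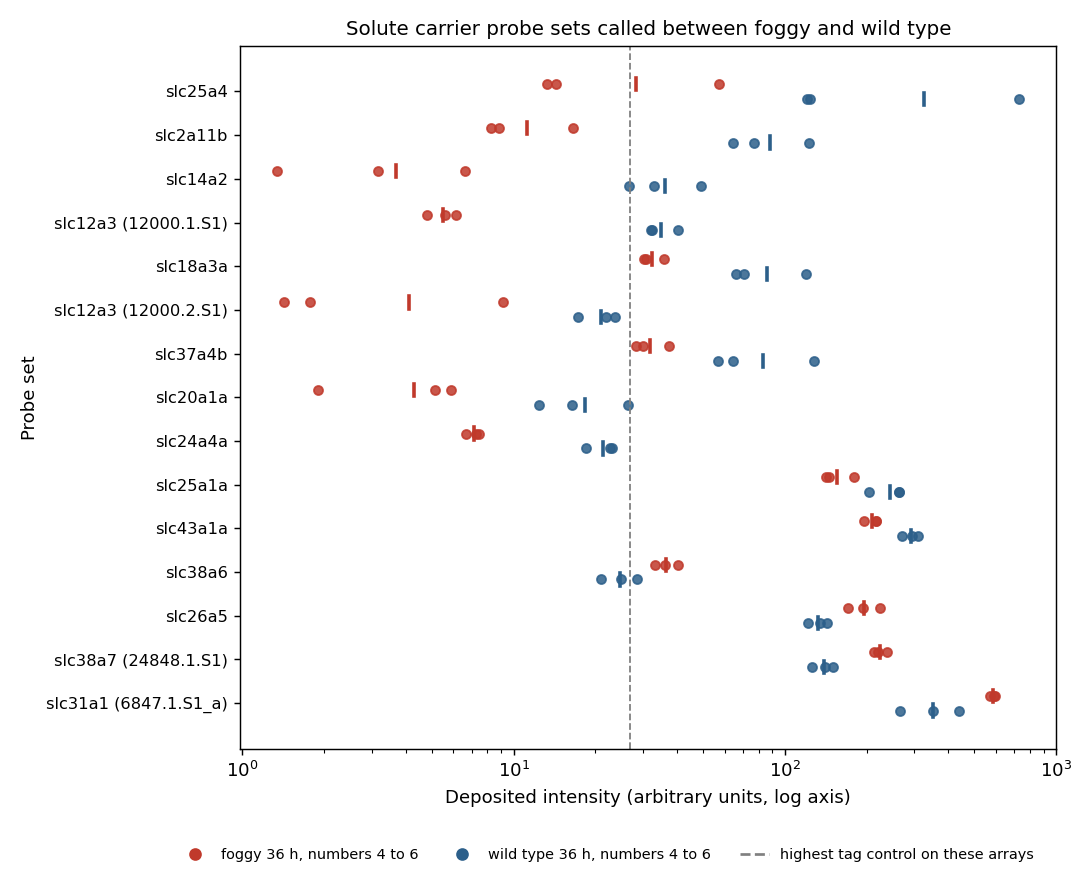
Deposited intensity on a log axis of the 15 carrier probe sets called between foggy (red) and wild type (blue) in numbers 4 to 6, 1 point per array, with the group mean as a vertical bar and the highest tag control of these 6 arrays as a dashed line. The foggy points of slc14a2 and slc12a3 lie left of the dashed line, and array 6 of slc25a4 in wild type lies at 732 units.

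The 4 rises reached 0.70 log2 units at most and came from amino acid, metal and ion carriers. Among 20 probe sets of metal carriers 1 rose and 0 fell, with a class median of 0.226. The copper uptake carrier slc31a1 read 571, 591 and 598 units in foggy samples, against 353, 437 and 265 units in wild-type samples (difference 0.70 ± 0.17, limma adjusted p = 0.0344 at its first probe set). The groups did not overlap, but the call was lost in 5 of 6 cases when an array was left out, all but wild-type array 5, at an adjusted p of 0.0707 to 0.0952. Its other probe set read 538, 547 and 539 units in foggy samples and 402, 415 and 289.9 units in wild-type samples, with a difference of 0.52 ± 0.15 that was not called (limma adjusted p = 0.0582). The zinc carrier slc39a7, which releases zinc from the secretory pathway, had 464 to 546 units in foggy samples and 498 to 536 units in wild-type samples at its first probe set. Its ranges overlapped, and the difference of -0.07 had a 95% interval of -0.32 to 0.19. Its brighter second probe set read 696, 757 and 623 units in foggy samples and 667, 672 and 697 units in wild-type samples. The difference there was -0.00588 (limma adjusted p = 0.982).

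Of 20 amino acid carrier probe sets, 2 rose and 1 fell, and the class median was 0.201. The glutamine-type carrier slc38a7 read 220.0, 238 and 214 units in foggy samples, against 151, 141 and 126 units in wild-type samples (difference 0.59 ± 0.12, limma adjusted p = 0.0177). That call was lost without foggy array 4 or 5 or wild-type array 5 or 6, at an adjusted p of 0.0513 to 0.0633, and a second probe set of slc38a7 was not called (difference 0.33 ± 0.15, limma adjusted p = 0.194). The related slc38a6 read 33.1, 36.2 and 40.3 units in foggy samples and 20.9, 24.8 and 28.4 units in wild-type samples (difference 0.43 ± 0.12, limma adjusted p = 0.0497), a call lost whichever array was left out, at an adjusted p of 0.0738 to 0.159, and on the values as deposited (adjusted p = 0.0868). The large neutral amino acid carrier slc43a1a fell, at 196, 216 and 217 units in foggy samples and 310.0, 271 and 293 units in wild-type samples (difference -0.43 ± 0.11, limma adjusted p = 0.0464). Its groups did not overlap, yet this call too was lost whichever array was left out, at an adjusted p of 0.0821 to 0.150. The neutral amino acid carrier slc38a5b, at 475, 441 and 418 units in foggy samples and 323, 323 and 362 units in wild-type samples, did not overlap either, but was not called (difference 0.37 ± 0.12, limma adjusted p = 0.0786).

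Groups that did not overlap were common across the array. Foggy arrays 4 to 6 lay entirely above the wild-type ones for 27 carrier probe sets and entirely below them for 23, that is 18.6% and 15.9% of 145, against 16.7% and 15.6% of all probe sets. Among the brightest probe sets of their classes, the fatty acid carrier slc27a2a averaged 844 ± 47.2 units in foggy samples and 669.6 ± 32.8 units in wild-type samples (SD, n = 3 each). Its groups did not overlap, but it was not called (difference 0.28, limma adjusted p = 0.146). The sugar phosphate carrier slc37a2 averaged 173 ± 12.9 units in foggy samples and 170.3 ± 18.7 units in wild-type samples, with a difference of 0.02 (95% interval -0.26 to 0.29). No called change was found for nucleoside and nucleotide sugar carriers (2 probe sets, including slc35a4), nor for slc7a6os or slc4a1ap, at the limma threshold used.

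Within numbers 1 to 3, where supt5h was not lower in the arrays labelled foggy, 1 wild-type array was available and no call was made. The differences there were small, with a median of -0.02 and a range of -0.99 to 0.64. Of the 11 probe sets that fell in numbers 4 to 6, 10 were also lower in the mean of foggy arrays 1 to 3 than in wild-type array 1. For slc25a4 these levels were 40.4, 41.5 and 45.9 units in foggy arrays, against 93.1 units in the wild-type array, a difference of -0.99. The exception was the second slc12a3 probe set, which was within the tag range in that set. So were the first slc12a3 probe set, slc14a2 and slc20a1a, which are counted among the 10. All these signs rest on the same wild-type array, and the share of all probe sets with matching signs was not counted. Of the 4 probe sets that rose, 3 were also higher in foggy arrays 1 to 3, by 0.01 to 0.15 log2 units, and slc31a1 had a difference of -0.30.

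A test of whether the foggy effect differed between the number sets called 1 carrier probe set, against 1.54% of all probe sets. It was the first probe set of slc12a3, with a difference of effects of -1.13 ± 0.16 and a limma adjusted p of 0.00781. In numbers 1 to 3 this probe set read 0.96, 1.29 and 1.1 units in foggy arrays and 3.16 units in the wild-type array, all within the tag range. Under the alternatives tried its adjusted p was 0.0112 to 0.0384.

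Over all 10 arrays at 36 h (6 foggy against 4 wild type), 0 of 145 carrier probe sets were called by limma, against 0.168% of all probe sets. The smallest p-values belonged to slc14a2 (difference -1.20 ± 0.24, limma adjusted p = 0.111), slc25a4 (-2.06 ± 0.50, limma adjusted p = 0.196), slc37a4b (-0.81, limma adjusted p = 0.239) and slc20a1a (-0.56, limma adjusted p = 0.239). With the number set as a block, 10 were called, 1 higher and 9 lower, against 7.20% of all probe sets (2.87% higher and 4.33% lower). With the replicate number as a block, which pairs the arrays numbered 1, 4, 5 and 6, 7 were called, 0 higher and 7 lower, against 3.61% of all probe sets (1.04% higher and 2.57% lower), namely slc2a11b, slc12a3, slc14a2, slc18a3a, slc20a1a, slc25a4 and slc37a4b. Without wild-type array 1, 4 were called with no block, and the share of all probe sets in that case is not given here.

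The set block added 2 carriers that were not called within numbers 4 to 6. Ferroportin, slc40a1, the iron export carrier, read 221, 199 and 227 units in foggy arrays 1 to 3, against 155 units in wild-type array 1. In numbers 4 to 6 it read 339, 299 and 339 units in foggy arrays, against 258, 243 and 268 units in wild-type arrays, with no overlap. Of all probe sets, 16.7% lay entirely above wild type in numbers 4 to 6, and numbers 1 to 3 hold only 1 wild-type array. The slc40a1 probe set was higher in foggy with the set block (difference 0.37 ± 0.09, limma adjusted p = 0.0297), against an adjusted p of 0.115 in numbers 4 to 6 alone. The organic anion carrier slc22a7b.1, a dim probe set, was lower with the set block (difference -0.40 ± 0.10, limma adjusted p = 0.0379). It read 30.2, 25.6 and 30.4 units in foggy arrays 1 to 3, against 40.1 units in wild-type array 1, and 16.6, 10.5 and 17.4 units in foggy arrays 4 to 6, against 26.9, 30 and 24.7 units in wild-type arrays 4 to 6.

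After Foggy(DelCter) RNA, 9 of 145 carrier probe sets were called (6.21%), 1 higher and 8 lower than after control RNA, against 4.84% of all probe sets (1.47% higher and 3.37% lower). The median difference was -0.0448 for carriers and -0.0212 for all probe sets. With quantile normalization 2 were higher and 6 lower. With the replicate number as a block, which pairs these arrays, 9 were called, 2 higher and 7 lower, against 4.33% of all probe sets (1.36% higher and 2.97% lower). Leaving out a Foggy(DelCter) array left 6 calls, and leaving out control array 1, 2 or 3 left 5, 5 and 4. For these cases and for quantile normalization the share of all probe sets is not given here, so the counts say nothing about carriers alone. The calls of slc3a2b, slc43a2a, slc27a2a and slc2a3a did not depend on any single array, and that of slc2a3a was lost with a pseudocount of 1 (adjusted p = 0.0773). No carrier probe set was called both here and between foggy and wild type in numbers 4 to 6. The share of all probe sets called in both is not given here, so this count says nothing about carriers alone.

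The 1 rise was that of slc3a2b, which encodes the heavy chain (4F2hc) that carries several amino acid exchangers to the cell surface. It read 193, 222 and 165 units with Foggy(DelCter) RNA, against 80.9, 91.2 and 84.4 units with control RNA, with no overlap. The difference was 1.04 ± 0.14 (SE, n = 3 each; limma adjusted p = 0.00400). Its paralogue slc3a2a had a difference of -0.04 (95% interval -0.35 to 0.26). The cationic amino acid carrier slc7a3a, at 261, 231 and 296 units with Foggy(DelCter) RNA and 153, 150.1 and 203 units with control RNA, missed the threshold (difference 0.60 ± 0.15, limma adjusted p = 0.0568) and passed it with the replicate number as a block (limma adjusted p = 0.0392).

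Other amino acid carriers fell, with 3 falls and the 1 rise of slc3a2b among 20 probe sets. The large neutral amino acid carrier slc43a2a read 142, 149 and 159.8 units with Foggy(DelCter) RNA, against 287, 307 and 308 units with control RNA (difference -0.93 ± 0.12, limma adjusted p = 0.00321). The groups did not overlap. Its paralogue slc43a2b, at 96.1, 93.6 and 58.8 units with Foggy(DelCter) RNA and 104, 193 and 116 units with control RNA, was not called (difference -0.61 ± 0.23, limma adjusted p = 0.171). The lysosomal peptide and histidine carrier slc15a4 read 65.2, 46.7 and 45.6 units with Foggy(DelCter) RNA and 75.9, 116 and 95.3 units with control RNA (difference -0.70 ± 0.17, limma adjusted p = 0.0489). It lost the call whichever array was left out, at an adjusted p of 0.0520 to 0.149, with the replicate block (adjusted p = 0.0816) and with quantile normalization (adjusted p = 0.0697). The amino acid carrier slc38a8b fell to 38.2, 54.6 and 38.4 units with Foggy(DelCter) RNA, against 65.3, 86.2 and 78.9 units with control RNA (difference -0.64 ± 0.15, limma adjusted p = 0.0466), a call also lost whichever array was left out, at an adjusted p of 0.0505 to 0.139, and with quantile normalization (adjusted p = 0.0665).

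Sugar and monocarboxylate carriers had 2 falls among 19 probe sets, and lipid, vitamin and organic solute carriers 1 among 15. The facilitative glucose carrier slc2a3a, the counterpart of the mammalian neuronal GLUT3, read 20.9, 14.5 and 8.52 units with Foggy(DelCter) RNA, within the tag range, against 48.6, 46.2 and 51.1 units with control RNA. It was at least 2.57-fold lower (fitted difference -1.10 ± 0.16, limma adjusted p = 0.00648). The liver-type glucose carrier slc2a2 read 13, 4.37 and 15.9 units with Foggy(DelCter) RNA, within the tag range, against 38.8, 37.6 and 30.7 units with control RNA, at least 1.89-fold lower (fitted difference -0.96 ± 0.18, limma adjusted p = 0.0183), a call lost without any of the 3 control arrays, at an adjusted p of 0.0530 to 0.0677. The fatty acid carrier and acyl-CoA synthetase slc27a2a read 146, 148 and 123 units with Foggy(DelCter) RNA, against 273, 287 and 302 units with control RNA (difference -0.97 ± 0.12, limma adjusted p = 0.00355). None of these 3 pairs of groups overlapped.

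Most liver and yolk layer markers were lower beside them. The sum of the 5 measured (apoa1a, apoba, tfa, fabp10a and apoc1) was 11090 to 12770 units with Foggy(DelCter) RNA and 16200 to 18260 units with control RNA, and 3 of 5 fell. The others did not fall, as apoc1 averaged 6720.0 units with Foggy(DelCter) RNA and 5832 units with control RNA, and fabp10a was within the tag range in both groups. The neuronal sum was also lower, at 302.6 to 372.9 units with Foggy(DelCter) RNA and 495.2 to 579.7 units with control RNA, and 1 of 8 fell. Red blood cell, skeletal muscle, pigment cell, and ionocyte and pronephros sums were lower too, but many of these markers were dim. All 4 pigment cell markers were within the tag range in each group, as were 2 of 4 muscle and 2 of 3 ionocyte and pronephros markers. In these lists 0 markers were called lower, and 1 of 5 red blood cell markers was. The sums of brain regions, glia, photoreceptors and myeloid cells overlapped between the groups. The part of these markers in the carrier results was not tested. Outside these classes, the GABA carrier slc6a11a read 24.9, 33.6 and 34.2 units with Foggy(DelCter) RNA, against 61.8, 64.5 and 72.6 units with control RNA (difference -0.81 ± 0.13, limma adjusted p = 0.0112), a call lost without control array 3 (adjusted p = 0.0548). The divalent metal carrier slc11a2, which takes up iron, read 163, 158 and 159 units with Foggy(DelCter) RNA, against 247, 258 and 246 units with control RNA (difference -0.60 ± 0.11, limma adjusted p = 0.0204), a call lost whichever array was left out, at an adjusted p of 0.0561 to 0.0736. None of 29 mitochondrial and 28 ion carrier probe sets was called by limma in either direction.

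**Figure D3:**
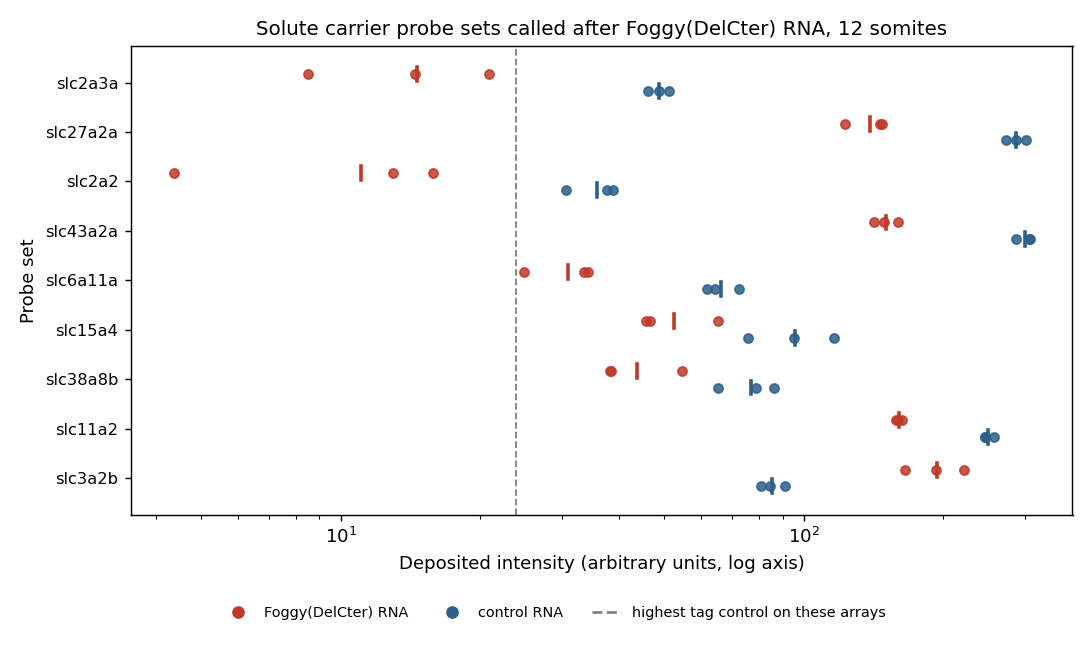
Deposited intensity on a log axis of the 9 carrier probe sets called between Foggy(DelCter) RNA (red) and control RNA (blue) at 12 somites, 1 point per array, with the group mean as a vertical bar and the highest tag control of these 6 arrays as a dashed line. The red and blue points do not overlap in any of the 9, and slc3a2b alone has its red points to the right.

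Side by side, none of the 9 carriers called after Foggy(DelCter) RNA was called between foggy and wild type in numbers 4 to 6. The differences in foggy were -0.05 for slc2a3a, 0.28 for slc27a2a, 0.07 for slc2a2, 0.02 for slc43a2a, 0.17 for slc3a2b, 0.26 for slc15a4, 0.07 for slc6a11a and 0.14 for slc11a2. The ninth, slc38a8b, read 29.9, 26.6 and 16.1 units in foggy samples, against 41.4, 41.8 and 37.5 units in wild-type samples, with no overlap and a difference of -0.43 ± 0.15 (limma adjusted p = 0.105). The difference between the comparisons was not tested, and the share of all probe sets called in both is not given here.

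**Figure D4:**
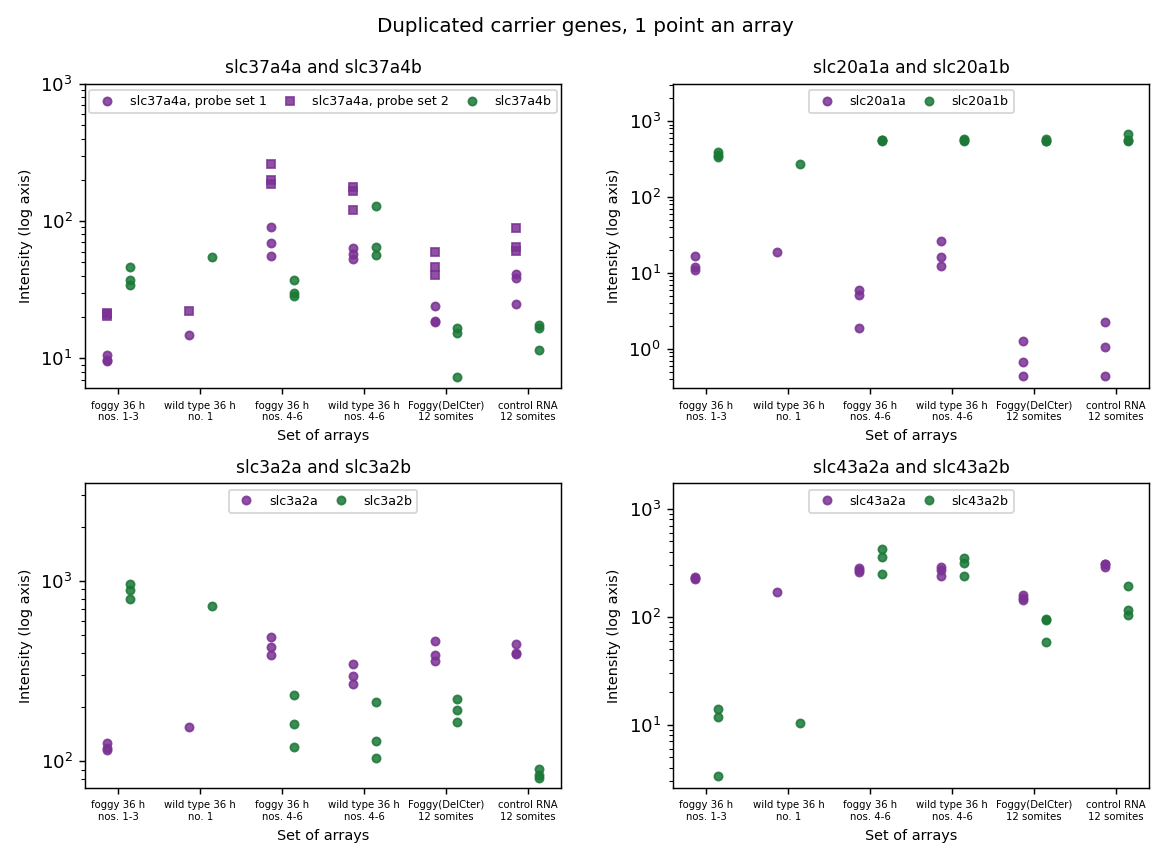
Intensity on a log axis in each array for 4 pairs of duplicated carrier genes, in the 6 sets of arrays. Purple points are the a paralogue (circles and squares are its probe sets) and green points the b paralogue, and levels of different probe sets are not on a common scale. The green points of slc37a4b are lower in foggy than in wild type in numbers 4 to 6 while the purple ones are not, and slc3a2b is higher with Foggy(DelCter) RNA than with control RNA.

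The contrast between the number sets gave more calls than that of genotype or injected RNA. Between foggy arrays 1 to 3 and foggy arrays 4 to 6, 92 of 145 carrier probe sets were called (63.4%), 29 higher and 63 lower, against 57.4% of all probe sets (27.9% higher and 29.6% lower). On the values as deposited 45 were higher and 51 lower. The share of all probe sets under that scaling is not given here, so these counts say nothing about carriers alone. The median difference of all probe sets was 0.196 on those values, against -0.0211 after quantile normalization, and directions are relative to that shift. All 6 arrays carry the label foggy. This contrast shares foggy arrays 4 to 6 with the comparison of genotypes, and what set the number sets apart is not given in the labels.

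Among the probe sets with the lowest differences, the fatty acid carrier slc27a2a read 15.7, 28.7 and 22.6 units in foggy arrays 1 to 3, within the tag range, against 898, 821 and 813 units in foggy arrays 4 to 6, at least 24.5-fold lower (fitted difference -4.64 ± 0.14, limma adjusted p = 3.6e-08). The amino acid carrier slc43a2b read 14.1, 11.7 and 3.33 units in arrays 1 to 3, against 422, 247 and 354 units in arrays 4 to 6, at least 9.91-fold lower. The carnitine-acylcarnitine carrier slc25a20, which brings fatty acids into mitochondria, read 137, 171 and 146 units in arrays 1 to 3, against 1332, 1393 and 1392 units in arrays 4 to 6 (difference -3.03 ± 0.11, limma adjusted p = 9.69e-08). The glucose-6-phosphate carrier slc37a4a was at least 6.27-fold lower at its second probe set, and the zinc carrier slc39a5 at least 2.98-fold lower. Liver and yolk markers moved the same way, summing to 105.7 to 123.7 units in foggy arrays 1 to 3 and 26400 to 28170 units in foggy arrays 4 to 6, and 4 of the 5 were within the tag range in arrays 1 to 3.

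Among the probe sets with the highest differences, the vesicular GABA and glycine carrier slc32a1 read 304, 337 and 318 units in foggy arrays 1 to 3, against 27.1, 33.9 and 49.5 units in foggy arrays 4 to 6 (difference 2.52 ± 0.15, limma adjusted p = 1.58e-06). The sulphate carrier slc26a2 read 261, 176 and 215 units in arrays 1 to 3, against 1.01, 1.68 and 1.29 units in arrays 4 to 6, at least 8.08-fold higher. The heavy chain slc3a2b read 799, 962 and 891 units in arrays 1 to 3, against 161, 120.2 and 233 units in arrays 4 to 6 (difference 2.39 ± 0.19, limma adjusted p = 9.77e-06). Neuronal markers summed to 9934 to 10310 units in foggy arrays 1 to 3 and 983.5 to 1327 units in foggy arrays 4 to 6. The part of liver, yolk and neuronal RNA in these differences was not tested.

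Several genes in this contrast had probe sets that disagreed. Of 16 symbols with more than 1 probe set, 3 had probe sets called in opposite directions (slc25a14, slc12a9 and slc49a4), and 10 had probe sets whose calls differed. For slc25a14, of the uncoupling protein group of mitochondrial carriers, the differences were 2.13 and 1.84 at probe sets that share a stem (1 of them with the suffix _x, which marks a set that can match other transcripts) and -0.58 at the other. That other set read 17, 16.5 and 18.9 units in foggy arrays 1 to 3 and 20.1, 22.8 and 23.8 units in foggy arrays 4 to 6, with both means within the tag range. In the comparison of foggy with wild type in numbers 4 to 6, 2 of these 16 symbols had probe sets whose calls differed and 0 had opposed calls.

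**Figure D5:**
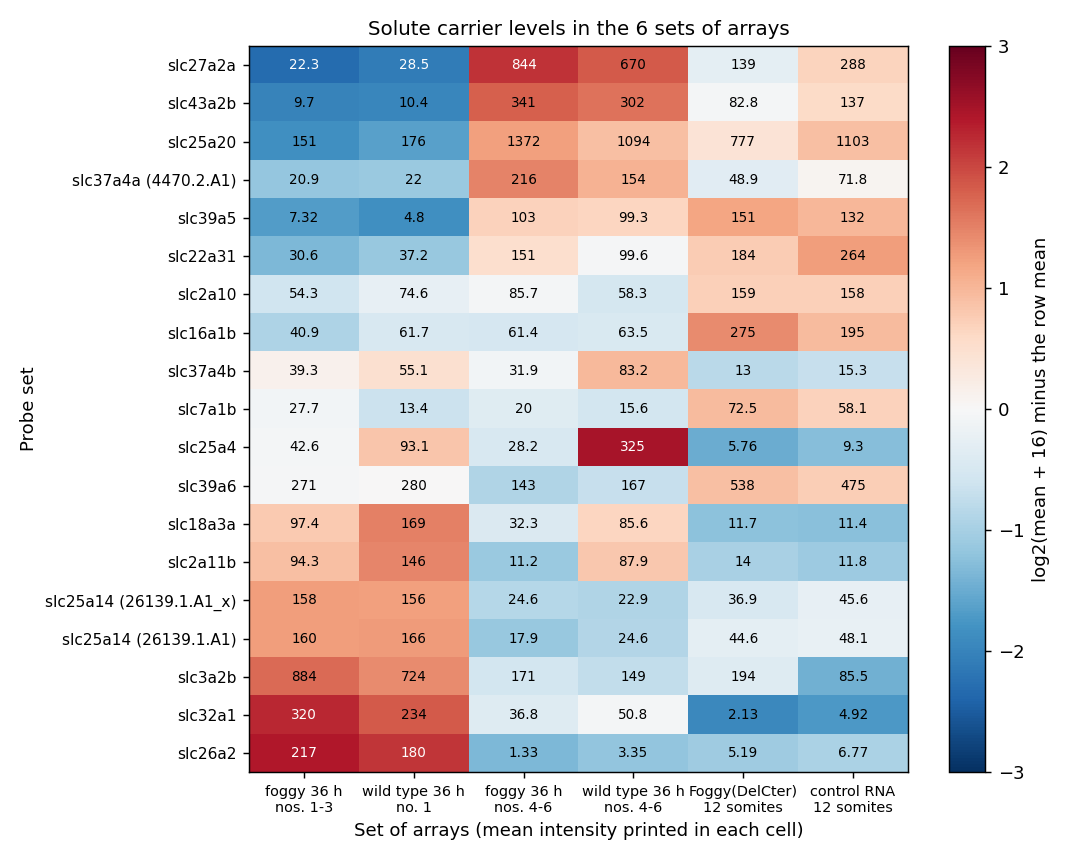
Mean intensity of 19 carrier probe sets in the 6 sets of arrays, printed in each cell, for the probe sets named for the contrasts of number sets and of stages. Colour is log2 of the mean plus 16 minus its average over the 6 sets, from blue (low) to red (high). The top 5 probe sets are blue in numbers 1 to 3, and slc3a2b, slc32a1 and slc26a2 at the bottom are red there, in foggy and wild type alike.

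Across stages, wild-type arrays 4 to 6 at 36 h were set against the control RNA group at 12 somites. Stage, material and injection change together in this comparison and cannot be told apart. It shares its wild-type arrays with the foggy comparison and its control arrays with the Foggy(DelCter) comparison. Of 145 carrier probe sets 68 were called (46.9%), 34 higher and 34 lower at 36 h, against 42.9% of all probe sets (19.2% higher and 23.7% lower). Neurotransmitter carriers had 4 rises and 2 falls among 10 probe sets, metal carriers 4 rises and 9 falls among 20, and amino acid carriers 3 rises and 8 falls among 20.

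The ADP/ATP carrier slc25a4 had the highest difference. It read 120.4, 123 and 732 units at 36 h, against 13.2, 7.41 and 7.29 units at 12 somites, within the tag range, and was at least 13.6-fold higher at 36 h (fitted difference 3.28 ± 0.53, limma adjusted p = 0.000964). The acetylcholine carrier slc18a3a was at least 3.58-fold higher at 36 h, slc2a11b at least 3.67-fold, slc37a4b at least 3.47-fold and slc32a1 at least 2.12-fold, each from a control mean within the tag range. Muscle markers summed to 8397 to 14590 units at 36 h and 130.3 to 154.2 units at 12 somites, and 4 of 4 rose. Pigment cell markers summed to 1346 to 2313 units at 36 h and 30.1 to 39.5 units at 12 somites, and 3 of 4 rose. Neuronal markers summed to 1944 to 2485 units at 36 h and 495 to 579.7 units at 12 somites, and 7 of 8 rose. Their part in these differences was not tested. Beside these, the differences between foggy and wild type in numbers 4 to 6, which use the same wild-type arrays, were -2.47 for slc25a4, -0.94 for slc18a3a, -1.83 for slc2a11b and -0.89 for slc37a4b. For slc32a1 the difference was -0.28 and was not called.

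Among the falls, the monocarboxylate carrier slc16a1b, which moves lactate, read 48.7, 76.0 and 65.7 units at 36 h, against 194, 159 and 232 units at 12 somites (difference -1.38 ± 0.17, limma adjusted p = 0.000196). The zinc carrier slc39a6 read 172, 166 and 163 units at 36 h, against 432, 570.3 and 423 units at 12 somites (difference -1.37 ± 0.14, limma adjusted p = 6.8e-05). The cationic amino acid carrier slc7a1b had a difference of -1.24 ± 0.14, slc22a31 of -1.23 ± 0.13 and the glucose carrier family member slc2a10 of -1.21 ± 0.16, each with no overlap between the groups.

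Other transport genes from a list by name were set beside the carriers. In numbers 4 to 6, 5 of 19 sodium pump subunit probe sets fell and 0 rose in foggy, as did 3 of 6 aquaporin probe sets, while 0 of 16 proton pump, 0 of 15 ABC transporter and 0 of 2 organic anion carrier (slco) probe sets were called, and of 2 cotransporter regulators 1 rose. Over all probe sets 3.89% rose and 5.95% fell. The sodium pump sets the gradient that many carriers use. Its subunit gene atp1a1a.2 averaged 24.8 units in foggy samples and 654 units in wild-type samples, within the tag range in foggy and at least 24.3-fold lower there (fitted difference -3.82 ± 0.17, limma adjusted p = 1.15e-05), and atp1b1b had a difference of -2.09 ± 0.16 (limma adjusted p = 0.000258). The water channel gene aqp3a averaged 59.2 units in foggy samples and 575 units in wild-type samples, with a difference of -2.92 ± 0.43 (limma adjusted p = 0.00493) and aqp1a.1 of -2.14 ± 0.21 (limma adjusted p = 0.000730). The kinase gene sgk1, whose product regulates sodium cotransport in mammals, rose by 0.51 ± 0.12 (limma adjusted p = 0.0306). In numbers 1 to 3 the direction was opposite, as sgk1 averaged 138.4 units in foggy arrays, against 213.6 units in the wild-type array.

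After Foggy(DelCter) RNA, 1 of 19 sodium pump probe sets fell and 1 of 16 proton pump probe sets rose, where 1.47% of all probe sets rose and 3.37% fell. Aquaporins had 1 rise, that of aqp3a (at least 2.13-fold higher, with a control mean within the tag range, fitted difference 1.56, limma adjusted p = 0.000662), and 2 falls, both probe sets of aqp12 (-1.30 and -1.05, limma adjusted p = 0.00214 and 0.0305). The kinase gene sgk1 rose here as well (difference 0.71, limma adjusted p = 0.0323). Between stages, 10 of 19 sodium pump and 11 of 16 proton pump probe sets were higher at 36 h, and 0 and 1 were lower, against 34 higher and 34 lower among the 145 carrier probe sets and 19.2% higher and 23.7% lower over all probe sets.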

How the data were processed

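The deposited table holds 1 intensity per probe set and array on a linear scale, and the authors had scaled every array to the same 2% trimmed mean (150 units), as found from the values. Which software summarised the probes was not given in the sources used here. Symbols came from the platform annotation, where 10795 probe sets had 1 symbol, 135 several and 4572 none, and all 145 carrier probe sets matched a symbol in a RefSeq table. The 115 control probe sets were left out, and no filter on low values was used.

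Linear models were fitted with limma 3.58.1 under R 4.3.3 and moderated by its eBayes step, on log2(intensity + 16), 2-sided, with Benjamini-Hochberg adjustment over 15502 probe sets. The 36 h and stage comparisons were quantile normalized, and the injected embryos were tested as deposited. Values per array in the text are as deposited. Arrays have no read depth, and their number limits the precision. Tests were checked on simulated data. The members, lists and tests were chosen with earlier results of these data known, and the role classes and marker lists were written by hand.

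Genes named were, by rule, the called probe sets with the largest changes whose groups did not overlap, the 4 of smallest p over all 36 h arrays, the brightest of each role class, paralogue pairs, and the calls of classes with at most 5. The values of slc22a7b.1, slc40a1 with the set block, slc7a3a, slc3a2a and the transport genes named singly were chosen after their values were seen. Same-numbered arrays had deviations that correlated at 0.157, 0.162 and 0.109 in the injected groups and at 0.621 to 0.874 over all 36 h arrays. Numbers were taken to pair arrays in both, but the main fits of both comparisons used no block. Their SEs and adjusted p-values thus ignore the pairing unless a block is named. Within numbers 4 to 6 the correlations were 0.0279, 0.160 and 0.240, and numbers were not taken to pair arrays. These values do not set the cases apart, since 0.160 and 0.240 lie near or above those of the injected groups. The values over all 36 h arrays pool both number sets. Same-numbered arrays matched each other best for numbers 5 and 6 within numbers 4 to 6, but only for number 5 over all 36 h arrays. Alternatives were the other scaling, pseudocounts of 1 and 64, filters at the 30th and 60th percentile, an intensity trend with a robust prior, wider fits, blocks, and each array left out in turn.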

Additional observations from a re-analysis of the deposited data

Results flagged for a closer look

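In the wild-type 36 h group the array labelled 6 stood far from the others for slc25a4, at 732 units, and for slc37a4b, at 128 units, by a gap test on the extreme array of a group. This test marks about 1 group in 20 by chance. It marked 26 of 145 carrier probe sets in the wild-type group of 4 arrays and 2 of 145 in the foggy group of 6. These groups pool the number sets, 1 array against 3 in wild type and 3 against 3 in foggy, so the chance level does not hold for these counts. In 23 of the 26 the array marked was wild-type array 1, the 1 wild-type array of numbers 1 to 3.

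For the first probe set of slc12a3 the foggy effect differed between the number sets, by -1.13 log2 units (limma adjusted p = 0.00781), with levels within the tag range in numbers 1 to 3.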

How the results depend on the processing

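No named carrier had a called value of opposite sign under any alternative. In numbers 4 to 6, 15 calls became 4 with a pseudocount of 1 and 24 with 64, and 5 to 9 when an array was left out. Of all probe sets, 3.44% were called with a pseudocount of 1 and 14.8% with 64. The 4 calls were 0 higher and 4 lower, and the 24 were 13 higher and 11 lower. Over all 36 h arrays, 0 calls became 7 with the replicate block, 10 with the set block, and 0 to 4 with an array left out, 4 of them without wild-type array 1. The difference of effects between number sets gave 1 call, 4 with a pseudocount of 64, with the 60th percentile filter and with the trend and robust prior, and 1 to 2 with an array left out; without wild-type array 1 that difference could not be fitted. After Foggy(DelCter) RNA, 9 calls became 4 with a pseudocount of 1, 14 with the 30th percentile filter and 17 in 1 fit over 16 arrays, and 4 to 6 with an array left out. The 60th percentile filter left 43 calls in place of 92 between number sets and 35 in place of 68 between stages, as fewer probe sets were tested (48 and 52), and leaving out an array gave 84 to 95 and 60 to 67. The causes of the other changes were not tested. Apart from the blocks, whose shares are given above, the remaining counts lack the share of all probe sets. They therefore say nothing about carriers alone.

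The replicate block gave 15 calls in numbers 4 to 6, where the numbers were not taken to pair the arrays. It gave 9 after Foggy(DelCter) RNA, where slc15a4 lost its call and slc7a3a gained a call, with no other call changed. For the uncalled differences in numbers 1 to 3, settings added after seeing the data moved the median from -0.021 to -0.0464 at the lowest and -0.0087 at the highest. Dim genes limit these results, since a signal within the tag range gives only a bound.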
